A study of Rattus rattus with 8 samples.

Results

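The oxidative phosphorylation genes described here are those named as nuclear subunits of the respiratory chain and of ATP synthase, measured in the livers of rats fed sodium phenobarbital (NaPB). They were taken by gene symbol from the array's probe table. Symbols that begin with Nduf and a letter a, b, c, s or v were assigned to complex I, the 4 succinate dehydrogenase genes Sdha to Sdhd to complex II, and symbols that begin with Uqcr to complex III. Symbols that begin with Cox4 to Cox8 were assigned to complex IV, and those that begin with Atp5 to complex V. The rule found 88 of the 16945 genes named on the array, and 85 of the 10944 genes bright enough to be tested. Of the 88, 71 are common or liver subunits, all of them tested, and the rest are 4 assembly factors, 4 gene copies or pseudogenes, 5 isoforms typical of other tissues and 4 genes that are named like a subunit but have another role.

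The tested animals were 4 male rats of the WH strain that ate diet with NaPB at 2500 ppm for 7 days. The controls were 4 male WH rats on the same schedule with 0 ppm NaPB in the diet. Total liver RNA of each rat was labelled with Cy3 and hybridised to 1 single-colour Agilent array, so each diet had n = 4. The labels give no age, no genetic alteration and no pooling, and name the organism as Rattus rattus. NaPB, a barbiturate, acts in hepatocytes through the nuclear receptor CAR.

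Oxidative phosphorylation couples the oxidation of NADH and succinate to ATP synthesis across the inner mitochondrial membrane. Complexes I and II pass electrons to ubiquinone, complex III passes them to cytochrome c, complex IV passes them to oxygen, and complex V makes ATP from the proton gradient. Hepatocytes depend on the pathway for the energy cost of gluconeogenesis and urea synthesis. Most subunits are encoded in the nucleus and imported, while a small core is encoded in mitochondrial DNA. The mitochondrially encoded subunits were not analysed here, because 0 of the 25 symbols searched for them were in the probe table. Cox7a1, Cox6b1 and Cox7b2 were not analysed here either.

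Levels are given as scaled intensity, the signal relative to the 75th percentile of the named features on the same array. Levels of different genes cannot be ranked, since each probe has its own brightness. Between 31.8% and 34.5% of the named features on an array lay at the floor of 0.03 that was set for low values. Arrays within the NaPB diet correlated at r = 0.977 to 0.984 across features, arrays within the control diet at 0.981 to 0.989, and arrays of different diets at 0.973 to 0.984. Of the phenobarbital response list, 5 of 5 measured genes were higher with NaPB, among them Cyp2b2 with a log2 change of 4.6 ± 0.13 (SE). All 8 hepatocyte markers were bright enough to be tested, with a negative change in 8 of 8. Their summed level was 1169 to 1321 in NaPB livers and 1364 to 1488 in control livers, so the ranges did not overlap, and 1 of the 8 (Ahsg) passed the test as lower.

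The transcripts of the pathway differed little between diets. Ndufa8 and Ndufb7, both accessory subunits of complex I, were lower in NaPB livers, by 21.8% and 18.4% of the control level. The other 83 tested members did not pass a Benjamini-Hochberg adjusted p of 0.05 in limma's two-sided test over all genes. No member passed as higher, and 7 of 85 members (8.24%) had an unadjusted p under 0.05, against 26.8% of all genes. A positive change was seen in 2 of the 7, Ndufaf1, an assembly factor, and Cox8b, whose levels were close to the floor. Cox8b entered the test through the NaPB livers alone, where it was higher, and the floor narrows its spread. Its p is therefore not read as a rise. Over all tested genes, 6.16% were called higher and 4.29% lower, so the 2.35% of members called lower lay under the background share. Changes of individual members ran from -0.35 to 0.25 on the log2 scale.

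**Figure D1:**
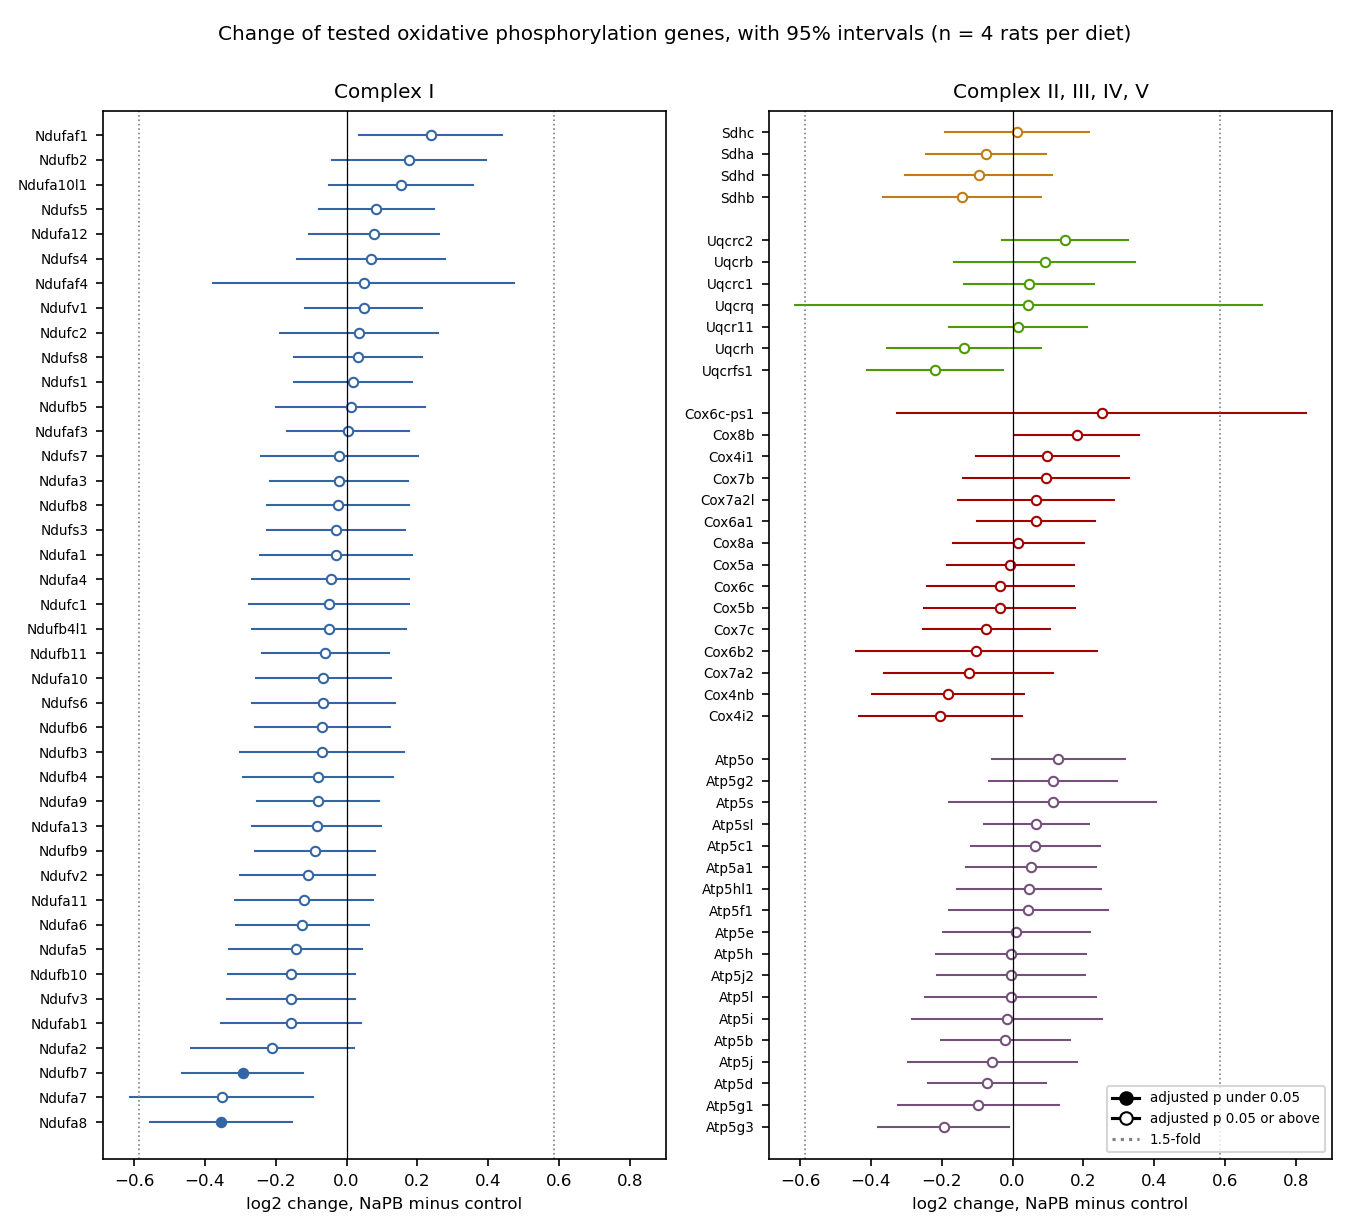
Log2 change, NaPB minus control, of each of the 85 tested oxidative phosphorylation genes (points), with the 95% interval of the difference (lines) over 4 rats per diet. Complex I is on the left and complexes II, III, IV and V are on the right from top to bottom; filled points passed an adjusted p of 0.05, and dotted lines mark 1.5-fold. Ndufa8 and Ndufb7 are the filled points, at -0.35 and -0.29, and most other points lie close to 0.

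The precision of the arrays limited how large an undetected change could be. For 57 of the 85 members (67.1%) the 95% interval of the difference lay within 1.25-fold in either direction, and for 82 (96.5%) it lay within 1.5-fold. Over all tested genes these shares were 27.6% and 70.3%. The median SD within a diet was 0.112 for the members and 0.160 for all genes, both on the log2 scale. The members were mostly bright, with 77 of 85 above the median level of tested genes, as were 5472 of all 10944. The part of signal level in these contrasts was not tested. Ndufa7, Uqcrq and Cox6c-ps1 were the 3 members whose interval reached beyond 1.5-fold. For Cox8b, and for other members with features at the floor, the floor narrows the interval. The median change was -0.02 over the members, with quartiles of -0.09 and 0.05, and 0.00148 over all genes, with quartiles of -0.15 and 0.17.

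Complex I, NADH dehydrogenase, was represented by 42 members, of which 41 were tested. Their median change was -0.05, with 13 positive and 28 negative values. Of the 41, 2 were called lower (4.88%), close to the 4.29% of all genes called lower. The catalytic core carries the NADH site and the iron-sulfur clusters, and 6 of its nuclear subunits were measured (Ndufs1, Ndufs3, Ndufs7, Ndufs8, Ndufv1 and Ndufv2). None of these 6 passed the test, none had an unadjusted p under 0.05, their changes ran from -0.11 to 0.05, and all 6 intervals lay within 1.25-fold.

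Ndufs1, the largest subunit of the core, had levels of 5.65, 6.13, 5.94 and 6.10 in NaPB livers and 6.03, 5.80, 6.29 and 5.43 in control livers. Ndufv1, which binds NADH and flavin mononucleotide, had levels of 18.4, 18.7, 19.5 and 18.6 in NaPB livers and 17.6, 19.8, 18.4 and 17 in control livers. The diets overlapped for both genes, with log2 changes of 0.02 ± 0.07 (adjusted p = 0.898) and 0.05 ± 0.07 (adjusted p = 0.711).

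The accessory subunits surround this core and are needed for its assembly and stability. The division of accessory subunits into a membrane arm and a matrix arm was written down after first values were seen. In the membrane arm 2 of 19 were called lower (10.5%), with a median change of -0.07. Of all genes, 4.29% were called lower and 10.5% in either direction, and the share in this arm rests on 2 genes. Ndufa8 had levels of 2.90, 3.24, 3.14 and 2.77 in NaPB livers and 4.27, 3.94, 3.59 and 3.6 in control livers. Every NaPB liver lay below every control liver, and the log2 change was -0.35 ± 0.09 (adjusted p = 0.0381, 95% interval of the change -31.9% to -10.1%). Ndufb7 had levels of 13.2, 13.9, 13.2 and 11.9 in NaPB livers and 16.6, 16.6, 15.3 and 15.5 in control livers. Again the diets did not overlap, and the log2 change was -0.29 ± 0.08 (adjusted p = 0.0409, 95% interval -27.5% to -8.12%).

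Both calls were close to the threshold. With 1 array left out at a time, Ndufa8 stayed below an adjusted p of 0.05 in 2 of the 8 cases, without NaPB replicate 2 (0.0493) or without control replicate 4 (0.0476), and Ndufb7 in 0 of 8. In all 8 cases both changes stayed negative, between -0.39 and -0.30 for Ndufa8 and between -0.32 and -0.25 for Ndufb7. The 2 features of each gene gave nearly the same change, -0.36 and -0.35 for Ndufa8 and -0.30 and -0.29 for Ndufb7. Both features were read on the same arrays, so their agreement does not bear on differences between rats.

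Ndufa8 and Ndufb7 share a sequence motif. With Ndufb10 and Ndufs5 they form the 4 complex I subunits that carry paired cysteine motifs and lie on the side of the intermembrane space, where disulfide bonds are formed in them after import. This set was put together after the values were seen and is given as a description. Ndufb10 had levels of 13.8, 14.2, 15.1 and 12.9 in NaPB livers and 15.9, 16.2, 16.1 and 14.3 in control livers (log2 change -0.16 ± 0.08, adjusted p = 0.247). Its diets overlapped through control replicate 4. Ndufs5 had levels of 28.2, 28.2, 31.7 and 28.0 in NaPB livers and 26.3, 28.2, 27.2 and 27.6 in control livers (0.08 ± 0.07, adjusted p = 0.491). Of the proteins that import and oxidise such subunits, Chchd4 (0.29 ± 0.12, adjusted p = 0.162), Gfer (-0.03 ± 0.07, 0.847) and Aifm1 (0.01 ± 0.08, 0.948) did not pass the test.

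In the matrix arm, 7 of 9 accessory subunits had a negative change and none passed the test, with a median of -0.12 and 1 at an unadjusted p under 0.05. That gene was Ndufa7, which had low levels of 0.241, 0.230, 0.191 and 0.193 in NaPB livers and 0.287, 0.231, 0.280 and 0.292 in control livers. Its change of -0.35 ± 0.11 (adjusted p = 0.0861) was close to that of Ndufa8, but control replicate 2 lay within the range of the NaPB livers. It passed the threshold in 1 of the other settings run, quantile normalization (adjusted p = 0.0477). Ndufv3 had non-overlapping levels of 1.57 to 1.72 in NaPB livers and 1.76 to 2.06 in control livers, with a change of -0.16 ± 0.08 (adjusted p = 0.245). Ndufab1, the mitochondrial acyl carrier protein that also serves fatty acid synthesis, changed by -0.16 ± 0.09 (adjusted p = 0.284), and its 3 features disagreed, between -0.32 and 0.02.

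By its symbol rule the complex I group also holds the assembly factors Ndufaf1 to Ndufaf4, which help to build the complex and are not part of it. Ndufaf1 had levels of 0.392, 0.426, 0.399 and 0.381 in NaPB livers and 0.354, 0.297, 0.375 and 0.335 in control livers. It was the single member whose NaPB livers all lay above the control livers, with a change of 0.24 ± 0.09 (adjusted p = 0.128). Ndufaf2 lay at the floor in all 4 NaPB livers and in 2 control livers and was not tested. Ndufa4, named as a complex I gene but since assigned to complex IV, changed by -0.04 ± 0.10 (adjusted p = 0.809).

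Over all members, the livers of the diets did not overlap for 5 of 85 (5.88%), 1 higher and 4 lower. Such separation was seen in 19.1% of all tested genes, 10.8% higher and 8.36% lower. The 4 lower members were Ndufa8, Ndufb7, Ndufv3 and Atp5g3.

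**Figure D2:**
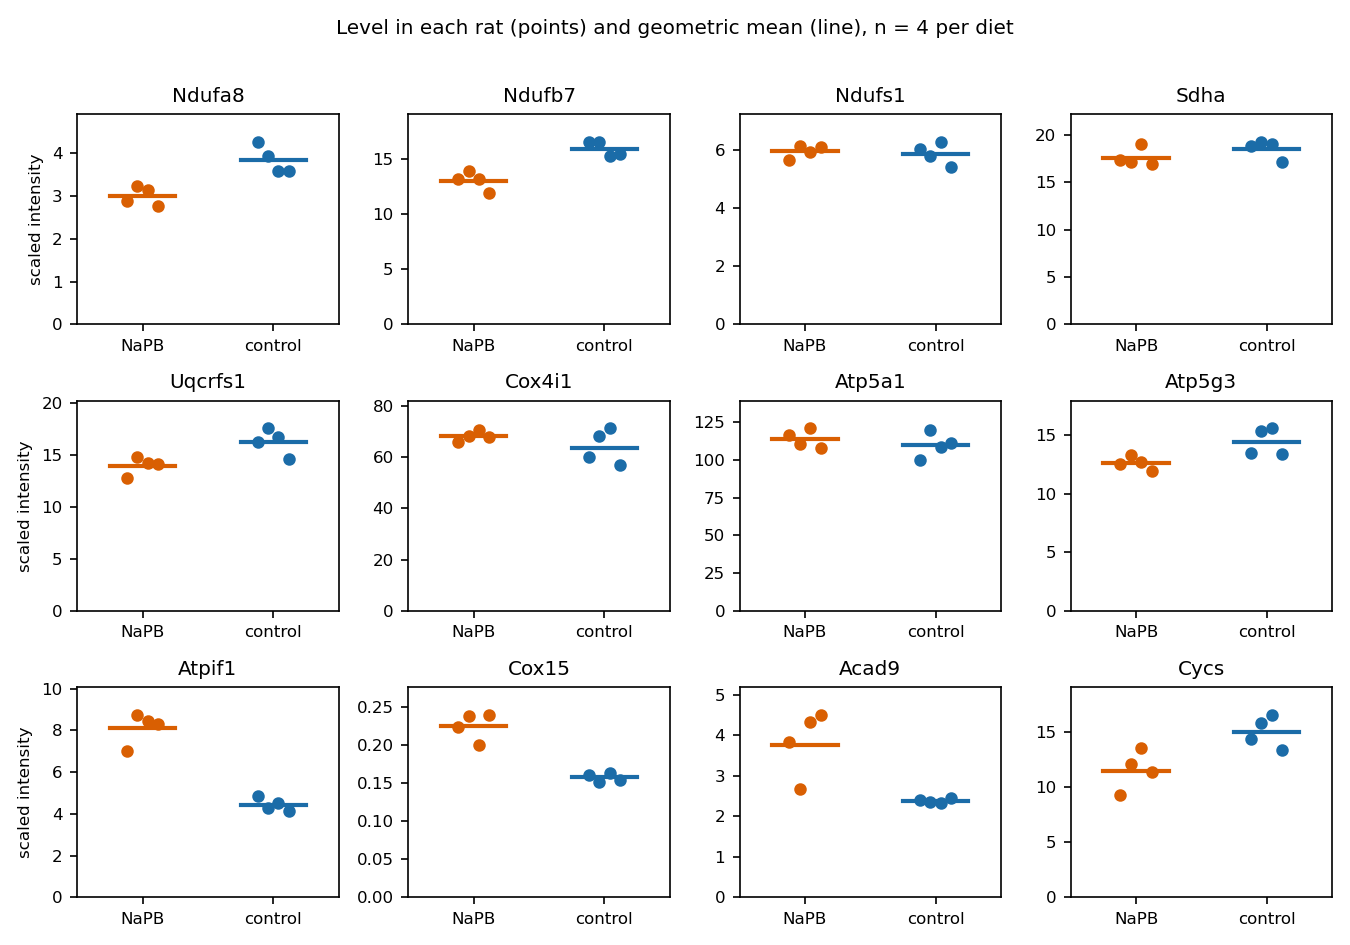
Scaled intensity (vertical axis, from 0) of 8 members and of 4 genes that build, regulate or serve the complexes, in each NaPB rat and each control rat (points), with the geometric mean of 4 rats (line). Every NaPB point lies below every control point for Ndufa8, Ndufb7 and Atp5g3 and above for Atpif1, Cox15 and Acad9; the diets overlap for Ndufs1, Sdha, Uqcrfs1, Cox4i1, Atp5a1 and Cycs.

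Complex II, succinate dehydrogenase, is shared by the respiratory chain and the tricarboxylic acid cycle, and all 4 of its subunits are nuclear. None passed the test, none had an unadjusted p under 0.05, and their median change was -0.08. Sdha, the flavoprotein that oxidises succinate, had levels of 17.3, 17.2, 19.1 and 16.9 in NaPB livers and 18.9, 19.3, 19.0 and 17.1 in control livers (-0.07 ± 0.07, adjusted p = 0.565). Sdhb, the iron-sulfur subunit, had levels of 12.7, 12.4, 11.9 and 9.76 in NaPB livers and 13.2, 13.1, 13.3 and 11.8 in control livers (-0.14 ± 0.10, adjusted p = 0.393). The fourth replicate was the lowest of its diet for both genes. The membrane anchors Sdhc and Sdhd changed by 0.01 ± 0.09 (adjusted p = 0.944) and -0.10 ± 0.09 (adjusted p = 0.549).

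Complex III, the cytochrome bc1 complex, had 7 tested members with a median change of 0.04, and none passed the test. Uqcrfs1, the Rieske iron-sulfur protein that takes electrons from ubiquinol, was the 1 member of this complex with an unadjusted p under 0.05. It had levels of 12.7, 14.7, 14.2 and 14.1 in NaPB livers and 16.2, 17.5, 16.7 and 14.6 in control livers (-0.22 ± 0.08, adjusted p = 0.137). Control replicate 4 fell inside the NaPB range. Uqcrc2, a core protein, had levels of 11.1, 11.6, 12.5 and 11 in NaPB livers and 10.5, 10.6, 11.1 and 9.60 in control livers (0.15 ± 0.08, adjusted p = 0.268). Uqcrc1, the other core protein, changed by 0.05 ± 0.08 (adjusted p = 0.75). Uqcrq, measured by 1 feature, varied from 0.497 to 1.06 among NaPB livers and from 0.504 to 1.02 among control livers, the widest spread of the complex.

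Complex IV, cytochrome c oxidase, has subunits with different isoforms in different tissues. Of 17 members, 9 were common or liver isoforms, and none of these passed the test or had an unadjusted p under 0.05; their median change was -0.01 and their range -0.12 to 0.10. Cox4i1, the common form of the largest nuclear subunit, had levels of 65.9, 68.3, 70.7 and 68.0 in NaPB livers and 59.9, 68.1, 71.2 and 56.8 in control livers (0.10 ± 0.09, adjusted p = 0.519). The control livers alone spanned a wider range than the NaPB livers. Cox6a1, the liver form of the Cox6a subunit, had levels of 112, 106, 119 and 103 in NaPB livers and 103, 108, 107 and 102 in control livers (0.06 ± 0.07, adjusted p = 0.612). Cox5a, Cox5b, Cox7a2 and Cox8a changed by -0.01, -0.04, -0.12 and 0.02, each with an adjusted p of 0.487 or more.

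The 5 isoforms typical of other tissues were dim or did not pass. Cox4i2, the isoform known from lung and induced by low oxygen, had levels of 2.34, 2.23, 2.31 and 1.80 in NaPB livers and 2.61, 2.43, 2.61 and 2.30 in control livers. The ranges overlapped slightly (-0.20 ± 0.10, adjusted p = 0.236). Cox6b2, the testis form, changed by -0.10 ± 0.15 (adjusted p = 0.699). Cox6a2, the form of heart and skeletal muscle, and Cox8c, known from testis, lay at the floor in all but 1 liver each and were not tested. Cox8b, another muscle form, entered the test through the NaPB livers alone, with levels of 0.0308 to 0.0367 there and 0.03 to 0.0314 in control livers, so close to the floor that no fold is given. Cox7a2l, which takes part in joining complexes into supercomplexes, and Cox4nb, which is no subunit of the oxidase, changed by 0.07 ± 0.10 (adjusted p = 0.702) and -0.18 ± 0.09 (adjusted p = 0.257).

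Complex V, ATP synthase, had 18 tested members, a median change of 0.00320 and equal numbers of positive and negative values, 9 each. Atp5s and Atp5sl, named after the enzyme but with other roles, and the copy Atp5hl1 are among the positive ones. None passed the test, and 1, Atp5g3, had an unadjusted p under 0.05. For 15 of the 18 the 95% interval lay within 1.25-fold. The 5 subunits of the catalytic head and central stalk (Atp5a1, Atp5b, Atp5c1, Atp5d and Atp5e) changed by -0.07 to 0.06, all with intervals within 1.25-fold. For Atp5d, at -0.07, 1 of 3 features lay at the floor on all arrays, which understates its change and narrows its interval. Atp5a1, the alpha subunit, had levels of 117, 110, 121 and 108 in NaPB livers and 99.8, 120, 109 and 111 in control livers (0.05 ± 0.08, adjusted p = 0.716). Atp5b, the catalytic beta subunit, had levels of 11.4, 12.7, 11.9 and 12.3 in NaPB livers and 11, 13.2, 12.7 and 12.2 in control livers (-0.02 ± 0.08, adjusted p = 0.894). The diets overlapped for both genes, and the control livers spread more widely.

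Atp5g1, Atp5g2 and Atp5g3 encode the same mature subunit c, whose ring turns in the membrane, with different import sequences. Atp5g3 had levels of 12.5, 13.3, 12.7 and 11.9 in NaPB livers and 13.5, 15.3, 15.6 and 13.3 in control livers (-0.19 ± 0.08, adjusted p = 0.166). The separation of its diets was narrow, since the highest NaPB liver and the lowest control liver both round to 13.3. Atp5g2 had levels of 53.1, 49.1, 54.8 and 47.6 in NaPB livers and 45.8, 48.9, 50.3 and 44.0 in control livers (0.11 ± 0.08, adjusted p = 0.397). Atp5g1 changed by -0.10 ± 0.10 (adjusted p = 0.575). The differences among these 3 changes were not tested.

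The 4 peripheral stalk subunits, which hold the head against rotation, changed by -0.06 to 0.13, with Atp5o highest (0.13 ± 0.08, adjusted p = 0.355). The 3 small membrane subunits Atp5i, Atp5j2 and Atp5l changed by -0.0154 to -0.0048, and all 3 intervals lay within 1.25-fold. Near-identical copies could share signal, so the following pairs are uncertain: Ndufa10 and Ndufa10l1, Ndufb4 and Ndufb4l1, Atp5h and Atp5hl1, and Cox6c with the pseudogene Cox6c-ps1. Cox6c-ps1 had the highest change of all members (0.25 ± 0.25, adjusted p = 0.568), with 4 features that ran from -0.10 to 1.03. Over the 80 tested members with 2 or more features, the features lay within 0.2 of each other in 75 and had the same sign in 50. For comparison, the median size of a member's change was 0.0694.

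Differences between rats of 1 diet were larger than the difference between the means of the diets. Each member's log2 level was taken relative to its mean over the 8 rats, and the median over the 85 members was -0.05, -0.02, 0.11 and -0.09 in NaPB replicates 1 to 4 and 0.02, 0.05, 0.05 and -0.08 in control replicates 1 to 4. The mean was -0.01 ± 0.09 in NaPB rats and 0.01 ± 0.06 in control rats (SD, n = 4 each). The same median over all tested genes stayed between -0.03 and 0.02 in every rat.

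NaPB replicate 3 was the highest of its diet for 58 of 85 members (68.2%), against 24.3% of all genes. NaPB replicate 4 was the lowest for 49 members (57.6%), against 30.3% of all genes. Control replicate 4 was the lowest of its diet for 62 members (72.9%), against 32.3% of all genes. These rats stood out in several complexes at once, as the complex V median of 0.18 in NaPB replicate 3 and -0.09 in control replicate 4 shows. Without NaPB replicate 3 the median change of the members was -0.08, and without NaPB replicate 4 it was 0.00724. For complex I the median change lay between -0.10 and -0.01 with any 1 array left out.

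**Figure D3:**
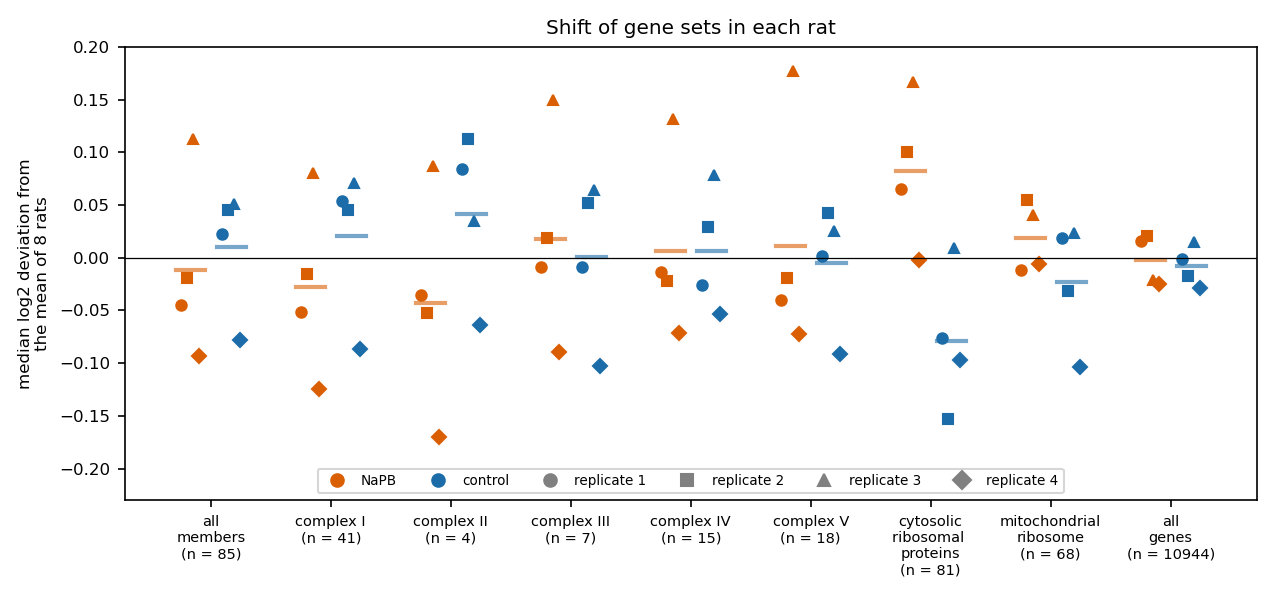
Median log2 deviation from the mean of 8 rats (vertical axis) for all members, each complex and 3 other sets. Points are single NaPB and control rats, and bars give the mean of a diet. Marker shapes give replicate numbers, which belong to different animals in each diet. NaPB replicate 3 lies at the top of the NaPB rats in all 5 complexes and replicate 4 at the bottom, and control replicate 4 at the bottom of the control rats, while all genes stay near 0.

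**Figure D4:**
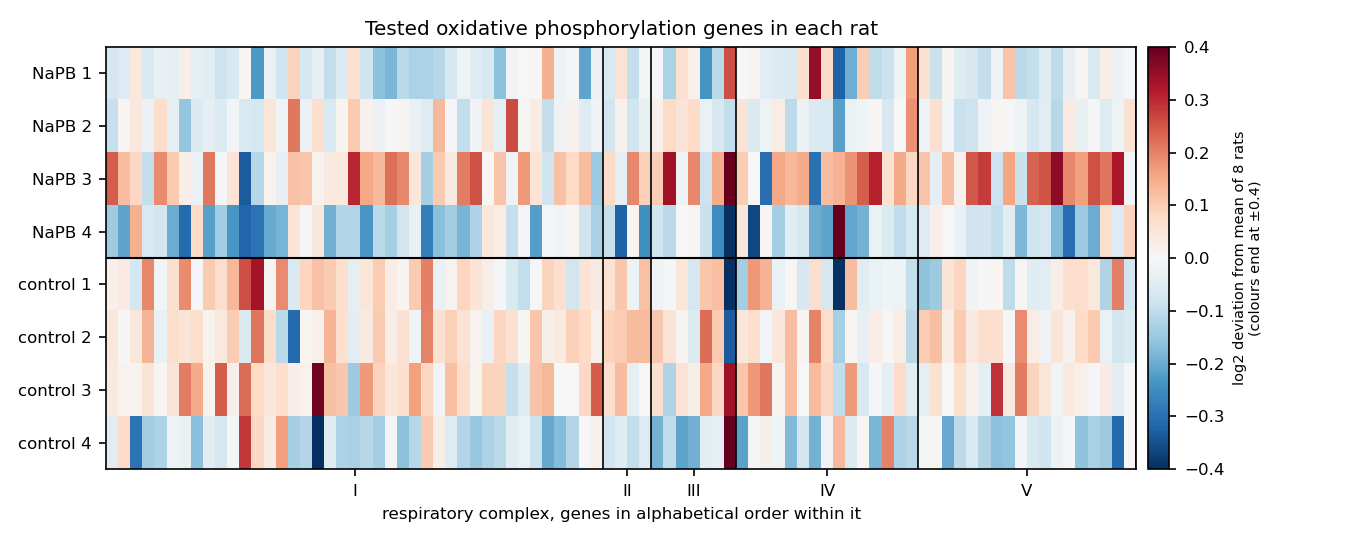
Log2 deviation of each tested member (columns, grouped by complex I to V) from its mean over 8 rats, in each NaPB rat and each control rat (rows); colours end at ±0.4. The rows of NaPB replicate 3 (mostly red) and of NaPB replicate 4 and control replicate 4 (mostly blue) differ more than the blocks of the diets do.

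The order of the rats was also taken in ribosomal protein genes, of which the cytosolic set was chosen after the values were seen. NaPB replicate 3 was the highest of its diet for 65.4% of 81 cytosolic ribosomal protein genes and for 42.6% of 68 mitochondrial ribosome genes. NaPB replicate 4 was the lowest for 65.4% of the cytosolic set and for 30.9% of the mitochondrial set, the mitochondrial share being close to the 30.3% of all genes. Control replicate 4 was the lowest of its diet for 28.4% of the cytosolic and for 66.2% of the mitochondrial set. In the cytosolic set control replicate 3 was the highest for 74.1% and control replicate 2 the lowest for 50.6%, against 41.2% and 7.06% of the members. Between diets, the cytosolic set had a median change of 0.15 with 75 of 81 values positive, and the members a median of -0.02 with 35 of 85 positive. Of the cytosolic set 7.41% were called, 6 genes higher and 0 lower, close to the 6.16% of all genes called higher. The difference between the sets was not tested. Whether RNA quality or another property of a liver moved with these deviations was not tested.

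Some markers of other liver cells differed between diets. Over all tested genes 4.29% were called lower and 6.16% higher, and each marker list holds few genes. For stellate cells, 3 of 8 genes were called lower, and 2 of the 8 had a positive change. The summed level of the 8 was 5.37 to 6.15 in NaPB livers and 6.69 to 9.76 in control livers. For sinusoidal endothelium the summed level was 11.3 to 13.4 in NaPB livers and 14.9 to 16.6 in control livers, with a median change of -0.01 over its 6 genes. Kdr was called lower (-0.41 ± 0.08, adjusted p = 0.0166), while Oit3 had all NaPB livers above the control livers (0.35 ± 0.14, adjusted p = 0.141). Of the bile duct genes, 1 of 4 tested was called higher (summed level 0.885 to 1.06 in NaPB livers and 0.395 to 0.482 in control livers). Kupffer cell markers overlapped between diets, at 52.3 to 68.5 in NaPB livers and 56.2 to 66.3 in control livers, with 1 of 8 called lower. Lymphocyte markers lay at 0.737 to 0.784 in NaPB livers and 0.693 to 0.793 in control livers, with 3 of 8 at the floor on all arrays and 1 of 5 tested called lower. Skeletal muscle markers lay at 0.462 to 0.601 in NaPB livers and 0.494 to 0.616 in control livers. None of the 3 tested muscle genes was called, and 1 had an unadjusted p under 0.05. Brown fat markers lay at 1.98 to 5.27 in NaPB livers and 1.04 to 2.59 in control livers. Of these 5 genes 2 were tested, with changes of 0.73 and 0.87 (median SE 0.38), and 0 were called. In whole liver, fewer cells of a type and less RNA per cell cannot be told apart, and the part of these shifts in the changes of Ndufa8 and Ndufb7 was not tested.

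Some genes that build, regulate or feed the chain had changes larger than any in the subunits. Over all tested genes, 10.5% were called and changes ran from -3.09 to 6.86. Among assembly genes, 12.5% were called for complex I, 10% for complex IV and 28.6% for complexes II, III and V. The share was 5.56% for carriers and ADP exchange, 6.25% for regulators and 20% for the tricarboxylic acid cycle. It was 7.35% for the mitochondrial ribosome and 0% for import and folding. Most lists hold few genes, so single genes move these shares. Atpif1, the inhibitor that blocks ATP hydrolysis by ATP synthase when the proton gradient fails, had levels of 7.03, 8.75, 8.44 and 8.31 in NaPB livers and 4.87, 4.3, 4.5 and 4.13 in control livers. Every NaPB liver lay above every control liver, with a log2 change of 0.87 ± 0.09 (adjusted p = 0.000993), and it passed in all 18 other settings run. In its list of assembly and inhibitor genes of complexes II, III and V, 1 of 7 was called higher and 1 lower. The lower one was Ttc19, which acts in the maturation of complex III (-0.33 ± 0.07, adjusted p = 0.0220), which passed in 12 of 17 other settings, with adjusted p up to 0.0815; leaving out NaPB replicate 2 or 4 or control replicate 1 or 3 lost it.

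Of 10 tested assembly genes of complex IV, 1 was called higher. This was Cox15, which makes the heme A of the oxidase, with levels of 0.224, 0.239, 0.2 and 0.240 in NaPB livers and 0.161, 0.152, 0.164 and 0.155 in control livers. The diets did not overlap (0.51 ± 0.08, adjusted p = 0.00613), and it passed in all 17 other settings in which it was tested. Among 8 tested complex I assembly genes 1 was higher, Acad9, an acyl-CoA dehydrogenase relative needed to build the complex. Acad9 had levels of 3.82, 2.68, 4.32 and 4.5 in NaPB livers and 2.39, 2.34, 2.33 and 2.44 in control livers (0.66 ± 0.15, adjusted p = 0.0299). NaPB replicate 2 lay close to the controls, and the call was kept in 8 of 18 other settings, with adjusted p up to 0.09. Leaving out any array other than NaPB replicate 2 lost it.

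The electron carriers and ADP exchange genes had 1 of 18 called lower, Etfb, a subunit of the flavoprotein that brings electrons from fatty acid oxidation (-0.28 ± 0.07, adjusted p = 0.0388). The call was kept in 10 of 18 other settings, with adjusted p up to 0.110, and was lost without any array other than control replicate 4. Cycs, cytochrome c, had levels of 9.26, 12, 13.5 and 11.4 in NaPB livers and 14.4, 15.7, 16.5 and 13.3 in control livers. It did not pass (-0.38 ± 0.13, adjusted p = 0.0890). Of the regulators of mitochondrial DNA and biogenesis, 1 of 16 was called, Polg2, the accessory subunit of the mitochondrial DNA polymerase. Polg2 had levels of 2.22, 2.02, 1.87 and 1.56 in NaPB livers and 2.93, 3.28, 3.41 and 3.14 in control livers (-0.74 ± 0.11, adjusted p = 0.00528), and it passed in all 18 other settings. Tfam (0.01 ± 0.07, adjusted p = 0.921) and Nrf1 (-0.03 ± 0.10, adjusted p = 0.874), transcription factors of mitochondrial biogenesis, did not pass. Ppargc1a, a coactivator in mitochondrial biogenesis, lay mostly at the floor and was not tested.

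In the tricarboxylic acid cycle with pyruvate dehydrogenase, 2 of 15 genes were called higher and 1 lower. Pdha1 (0.34 ± 0.08, adjusted p = 0.0378) and Dlat (0.35 ± 0.10, adjusted p = 0.0499), both of the pyruvate dehydrogenase complex, were higher, and Sucla2, a subunit of succinyl-CoA ligase, was lower (-0.40 ± 0.09, adjusted p = 0.0273). These calls were close to the threshold: Pdha1 passed in 7 of 18 other settings (adjusted p up to 0.115), Dlat in 5 (up to 0.148) and Sucla2 in 12 (up to 0.0806). With 1 array left out, Pdha1 passed only without NaPB replicate 1, Dlat only without NaPB replicate 3, and Sucla2 only without NaPB replicate 2 or control replicate 4. Cs, citrate synthase, did not pass (0.10 ± 0.08, adjusted p = 0.470). None of 22 protein import and folding genes passed, with 1 at an unadjusted p under 0.05. In the mitochondrial ribosome 3 of 68 were higher (Mrpl14, Mrpl17 and Mrpl19) and 2 lower (Mrpl15 and Mrps14). Mrpl14 and Mrpl19 each passed in 17 of 18 other settings, Mrps14 in 13 of 17, and Mrpl15 and Mrpl17 each in 9 of 18. The medians of these lists ran from -0.10 for the assembly genes of complexes II, III and V to 0.11 for those of complex I.

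**Figure D5:**
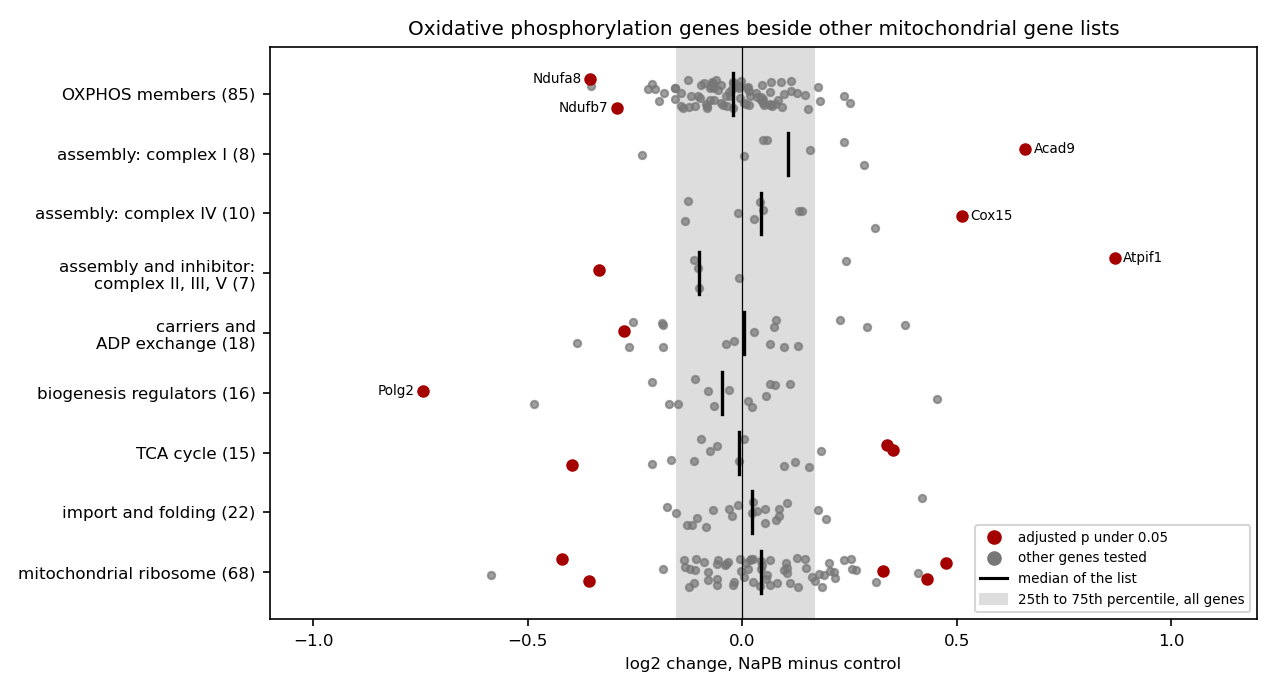
Log2 change, NaPB minus control (horizontal axis), of each tested gene (points) in the oxidative phosphorylation set and 8 other mitochondrial lists, with the number tested in brackets; red points passed an adjusted p of 0.05, black bars are medians, and the grey band runs from -0.15 to 0.17, the quartiles of all genes. Atpif1 at 0.87, Acad9 at 0.66 and Polg2 at -0.74 lie outside the range of the members, -0.35 to 0.25.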

How the data were processed

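The deposited values are linear Cy3 spot intensity on a scale the authors did not state, not centred and not log-transformed as the values show. Per the submitters' processing notes, Agilent Feature Extraction 10.7 was used. How background, flags and scaling were handled is not given in the sources used here. Per array, the median deposited value was 0.0888 to 0.101. Of 62976 features, 45904 carried 1 symbol, 0 several and 17072 none. Symbols stayed as in the probe table, and 42 of the 88 members were found in the reference gene table.

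Intensities were taken relative to the 75th percentile of named features on the array, given a floor of 0.03, put on the log2 scale and averaged over the features of a gene, which understates changes near the floor. Genes that exceeded the floor in 3 or more rats of a diet were tested with limma 3.58.1 (lmFit, eBayes, two-sided) in R 4.3.3, without covariates, adjusted over 10944 genes. Errors of changes are SE. The script was tested on simulated data. The number of arrays limits precision, and no slide or batch is given. Named were members past the threshold, the largest rise and fall of each complex, a fixed set and, per other list, up to 4 called genes; further members were named after their values were seen. Members and lists were chosen with earlier results of these data known. The roles by which members were grouped within a complex were assigned after first values were seen. Alternatives covered scaling, floor, filter, brightest feature, replicate block, array weights, variance prior and leaving out each array. Figures were drawn with matplotlib 3.10.9.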

Additional observations from a re-analysis of the deposited data

Results flagged for a closer look

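Among 94 groups of 4 rats examined, 2 had a rat far from the other 3 by Dixon's criterion at the 95% level, which chance gives in about 1 group in 20. Sdhb had a log2 level of 3.56164 in control replicate 4, an intensity of 11.8, while the other control rats lay between 13.1 and 13.3. The median deviation of the complex I members was -0.0861427 in control replicate 4 and 0.0453 to 0.0709 in the other control rats. The same rat was the lowest of its diet for 62 of the 85 members.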

How the results depend on the processing

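Of 10944 genes, 1144 were called, 674 higher and 470 lower. With no filter there were 739 calls, 278 lower, and 1 member called lower, Ndufb7, with Ndufa8 at an adjusted p of 0.0614. Among genes above the median level 446 were higher. With the replicate block there were 583 calls, 354 higher and 229 lower, and 0 members changed or lower (adjusted p = 0.0972 for Ndufa8 and 0.106 for Ndufb7). Leaving out 1 array gave 625 to 980 calls, 385 to 556 higher and 240 to 426 lower, and 0 to 1 members called, all lower. In the other settings 2 or 3 members were called, and 0 members were higher in any of the 18 alternatives. Replicate numbers belong to different rats. The deviations of rats of the same number correlated at 0.0762, 0.0608, -0.128 and -0.0684, and number 1 alone was its own best match. No slide or batch is given, so whether rats of the same number shared one was not tested. The median change of all members ran from -0.08 to 0.00724. That of complex I ran from -0.10 to -0.01 and that of complex II from -0.13 to -0.04, while those of complexes III, IV and V took both signs. Of 1841 combinations of a gene (103 tested members and named genes) and a setting, 108 had another sign than reported, all with neither value past the threshold, and no called change turned its sign. The causes were not tested. The tested members Cox8b, Cox6c-ps1, Ndufs4 and Atp5d had feature values at the floor in both diets, which limits them. Ndufab1 had 1 such value, in a NaPB liver, and Ndufaf4 had 0. Both were dim, with mean levels of 0.201 to 0.269. The called genes Cox15 and Ttc19 were about as dim, with mean levels of 0.158 to 0.305 and 0 values at the floor.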
